A study of Mus musculus with 8 samples.

Results

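The glucocorticoid receptor (GR) sites described here were peaks in control liver that passed the peak caller's threshold in both control libraries but in at most 1 of the 2 libraries of each treated group. Members were selected on the peak calls themselves: overlapping peaks of 6 GR lists were merged into 51431 sites, a site counted as held where both libraries of a group had called a peak, and sites held by ctrl. but by neither cal. res. nor CORT were kept. This left 720 ctrl.-only sites, 1.4% of all sites and a subset of the 10996 sites that ctrl. held. The remaining 10276 ctrl.-held sites comprised 8097 held by all 3 groups, 334 shared with cal. res. alone and 1845 shared with CORT alone.

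GR ChIP-seq had been performed on livers of male C57BL/6J mice in 2 libraries per group, which the methods call biological replicates. In ctrl. mice, fed freely until the final week, food was then given at night only (NR in the labels). Cal. res. mice (CR) had their intake lowered stepwise and then held low, with food given at lights off. CORT mice (NR+CORT) were fed at night and received corticosterone by daily intraperitoneal injection shortly before lights off, and the labels do not say whether the ctrl. libraries came from vehicle-injected mice. All groups shared the genotype, the chow and the tissue, and 1 further list held FOXO1 peaks called on 2 merged cal. res. libraries. Whole liver mixes hepatocytes with other cells, so a difference in cell make-up and one in binding per cell cannot be told apart. All 13 hepatocyte marker genes that could be found had a ctrl.-held site within 50 kb of a transcript start, against 1 of 12 Kupffer cell and macrophage, 2 of 12 stellate cell, 5 of 12 sinusoidal endothelial, 3 of 10 cholangiocyte and 6 of 11 lymphocyte marker genes. Over all protein-coding genes the share was 49.2% (10786 of 21924), near those of the endothelial (41.7%) and lymphocyte (54.5%) markers.

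GR is a nuclear receptor that moves into the nucleus once it binds corticosterone, the main glucocorticoid of mice, whose level rises towards the active phase. It occupies DNA directly at glucocorticoid response elements (GREs), palindromes built of paired short sites, usually in enhancers that liver factors such as C/EBP, HNF and forkhead proteins already hold open. ChIP-seq also recovers GR at promoters and at sites without a GRE, where contact may run through other proteins such as STAT factors.

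The name of the set fits the calls only in part. Of the 720 sites, 637 had a peak in 1 or 2 of the treated libraries and 83 (11.5%) had none in any of the 4. Cal. res. replicate 1 had a peak at 272 members (37.8%), cal. res. replicate 2 at 80 (11.1%), CORT replicate 1 at 286 (39.7%) and CORT replicate 2 at 308 (42.8%). At the other ctrl.-held sites these libraries had a peak at 92.0%, 84.8%, 98.1% and 98.4%, values that the rule itself sets apart. No peak of either cal. res. library was found at 368 members (51.1%), and none of either CORT library at 126 (17.5%). The set was therefore mostly one of split replicates, above all under CORT, where 594 members (82.5%) had a peak in exactly 1 of the 2 libraries. The most frequent pattern, at 156 members, was a peak in CORT replicate 2 alone, followed by CORT replicate 1 alone at 129.

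**Figure D1:**
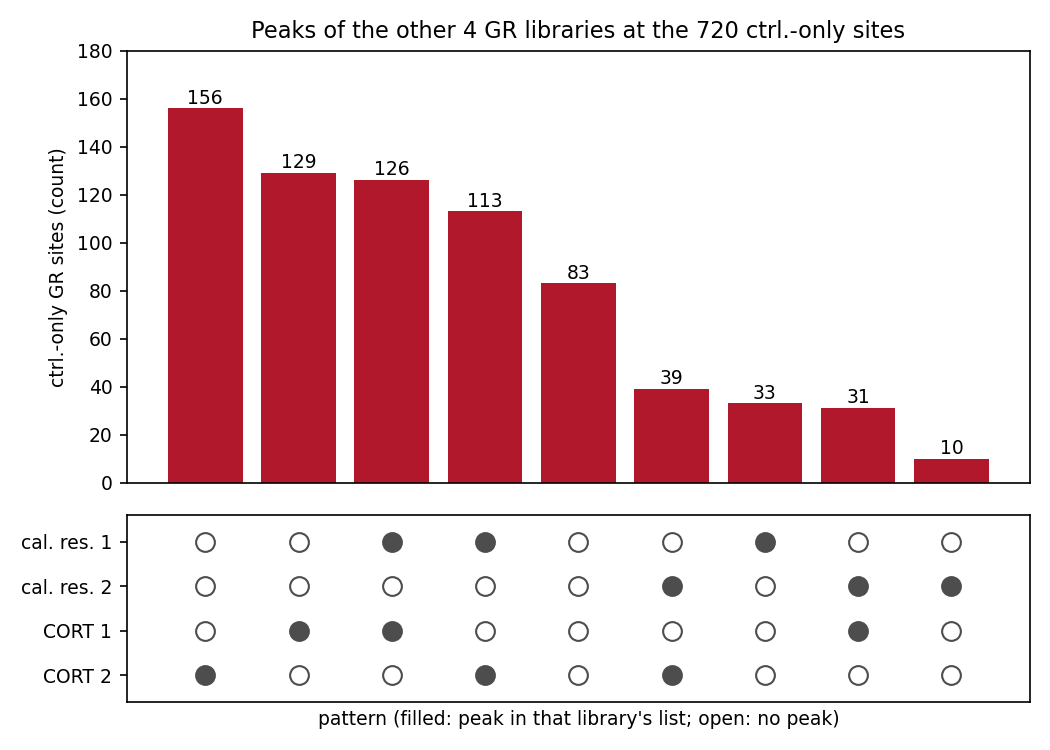
Bars give the number of ctrl.-only GR sites (y axis, count) with each pattern of peaks in the 2 cal. res. and 2 CORT libraries, and the dots under each bar show which lists had a peak. Only 83 of 720 sites had no peak in any of the 4 lists, and the 2 most frequent patterns were a peak in 1 CORT library alone.

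List lengths bear on these counts. Ctrl. replicate 1 had 41400 peaks and ctrl. replicate 2 only 13667, against 24915 and 20444 for the cal. res. libraries and 33451 and 48060 for the CORT libraries. Read totals were not analysed here, so the depth behind the lists is unknown. With the shorter ctrl. list left out the rule kept 13372 sites, and with ctrl. replicate 1 left out 1073. Without cal. res. replicate 2 it kept 449, without CORT replicate 1 it kept 419 and without CORT replicate 2 it kept 445. When all 6 lists were cut to their 12458 strongest regions the count was 1076, but only 129 of the 720 sites (17.9%) were among these. Library names follow 2 styles, 1 shared by ctrl. replicate 2 and both cal. res. libraries and 1 by ctrl. replicate 1 and both CORT libraries, and the labels do not say what the styles stand for. Within a style, 1207 of the 11482 merged sites with a peak of ctrl. replicate 2 (10.5%) had none in either cal. res. library, and 6937 of the 34778 with a peak of ctrl. replicate 1 (19.9%) had none in either CORT library.

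Sequences are shown for the strongest members without a peak in any treated library, since these fit the name best, each as 100 bp of the mm10 plus strand around the ctrl. summit with motif matches in capitals (GGGCGG of SP1, TTCNNNGAA of STAT, TTGCNNAA of C/EBP and the single GR hexamer AGAACA, on either strand). They range from GC-rich promoter DNA to mixed intronic and intergenic DNA. Each is named by the nearest protein-coding transcript start, and an intron may belong to another gene.
Hcn3, intron, chr3:89147775-89147874: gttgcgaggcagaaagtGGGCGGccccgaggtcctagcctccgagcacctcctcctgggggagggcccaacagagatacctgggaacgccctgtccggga
Neb, intron, chr2:52372546-52372645: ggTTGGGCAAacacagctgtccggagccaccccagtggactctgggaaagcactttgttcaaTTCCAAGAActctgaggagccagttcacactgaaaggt
Ces3a, intron, chr8:105056188-105056287: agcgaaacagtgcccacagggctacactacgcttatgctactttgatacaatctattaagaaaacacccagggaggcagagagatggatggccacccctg
Ehmt1, promoter, chr2:24919639-24919738: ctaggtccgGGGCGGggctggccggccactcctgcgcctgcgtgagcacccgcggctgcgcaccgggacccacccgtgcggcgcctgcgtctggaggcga
Shcbp1, intergenic, chr8:4839208-4839307: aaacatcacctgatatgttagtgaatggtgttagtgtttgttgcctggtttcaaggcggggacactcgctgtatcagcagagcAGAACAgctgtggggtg
Plekha3, promoter, chr2:76675217-76675316: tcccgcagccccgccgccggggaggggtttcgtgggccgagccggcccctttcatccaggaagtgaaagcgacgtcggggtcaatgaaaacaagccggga

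A further 3 members show the contrast within the set and were picked after their values were seen: the first-ranked promoter site, a promoter with repeated SP1 boxes, and the one strong site in AT-rich distal DNA that a FOXO1 region also covered. The Cisd2 window holds no capitals because its SP1 match lies further from the summit.
Cisd2, promoter, chr3:135423270-135423369: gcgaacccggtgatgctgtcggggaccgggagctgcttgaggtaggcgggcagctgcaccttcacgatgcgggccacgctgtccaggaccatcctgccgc
Metap1, promoter, chr3:138489497-138489596: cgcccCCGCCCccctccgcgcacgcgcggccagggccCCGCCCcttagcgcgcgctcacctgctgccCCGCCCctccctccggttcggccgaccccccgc
Cyp7b1, intergenic, chr3:18254429-18254528: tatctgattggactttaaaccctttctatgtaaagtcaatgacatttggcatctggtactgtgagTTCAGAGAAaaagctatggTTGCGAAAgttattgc

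Only 3 members held the GRE palindrome (GNACA and its reverse complement, 3 bases apart) within the 200 bp searched around the summit. The matches are given as found on the plus strand. Those near Ywhaz, coding for a 14-3-3 protein, and near Maf, a bZIP transcription factor, lay 85 and 92 bp from the summit, at the rim of the searched window, and that near Ndc1, a nuclear pore membrane protein, lay 39 bp from it.
Ndc1, chr4:107368043-107368055: GGACACTCTGTCC
Ywhaz, chr15:36716403-36716415: GGACACGATGTCC
Maf, chr8:115274916-115274928: GAACACCGTGTGC

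Fold enrichment, the peak caller's ratio of fragments at the summit to the local background, chose the members in effect, so strength is a description. In ctrl. replicate 1 it ranged over the members from 2.69 to 15.7 with a median of 5.21, against a median of 9.99 at the other ctrl.-held sites. In ctrl. replicate 2 it ranged from 2.28 to 10.3 with a median of 3.85, against 4.73. Members were thus weaker than the other ctrl.-held sites in both libraries. Ranked within its own list, the median member stood at percentile 44.6 in ctrl. replicate 1 and 28.7 in replicate 2, compared with 82.4 and 55.4 for the other ctrl.-held sites. Rebuilt from fold and p, summits held a median of 13 fragments in replicate 1 (6 to 50) and 12 in replicate 2 (9 to 42). When the ctrl.-held sites were divided into quintiles of the mean ctrl. percentile, the members numbered 459, 160, 77, 21 and 3 from the weakest quintile to the strongest. The 83 without any other peak were weaker again, with a mean percentile of 26.3 against 38.9 for the remaining members. Where a treated library did have a peak at a member it was also low in its list, with a median percentile of 28.7 and 23.1 for the cal. res. libraries and 39.6 and 43.1 for the CORT libraries. Values of different libraries were not scaled to a common depth, and at 279 members (38.8%) a treated library had a higher fold than both ctrl. libraries. The median width was 615 bp against 1062 bp. Width spans all peaks merged into a site, and the rule limits how many lists can have a peak at a member. This difference is therefore partly set by the rule.

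Several members rested on calls near the threshold of q 0.1. Just inside, the sites nearest to Pex14 (a peroxisome import factor) and Yipf5 each had a ctrl. peak at q 0.0960, and that near 2900026A02Rik had one at 0.0949. Just outside, sites near Trmt10c, Hook3 and Sult1b1 were held by CORT as well through peaks at q 0.0993, 0.0980 and 0.0965.

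Most of the strongest members were promoters. Of the 12 with the highest mean ctrl. percentile, 9 lay within 1 kb of a transcript start. At Cisd2, an iron-sulfur protein gene of the endoplasmic reticulum and mitochondria (chr3:135422852-135423856), fold enrichment was 14.2 and 7.59 in the ctrl. libraries and 10.04 in CORT replicate 1, with no peak in the remaining 3. Ppp3cb, a catalytic subunit of calcineurin, had 13.7 and 6.74 in ctrl., 4.41 in cal. res. replicate 2 and 6.82 in CORT replicate 1. Vdac3, a mitochondrial outer membrane channel, had 14.1 and 6.51 in ctrl., 4.68 in cal. res. replicate 1 and 13.8 in CORT replicate 1. In each of these promoters ctrl. replicate 1 exceeded replicate 2, and CORT replicate 1 reached or passed the lower ctrl. value.

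Nudt3, a phosphohydrolase of inositol pyrophosphates, had the highest fold of all members in ctrl. replicate 1, 15.7, with 5.71 in replicate 2, 6.40 in cal. res. replicate 1 and 9.55 in CORT replicate 1. The translesion polymerase gene Rev1 had 10.2 and 6.83 in ctrl., 4.93 in cal. res. replicate 1 and 5.86 in CORT replicate 1. At Metap1, coding for an enzyme that removes the first methionine of new proteins, the values were 11.5 and 6.11 in ctrl., 6.31 in cal. res. replicate 1 and 17.4 in CORT replicate 1. Here the highest value of the 6 libraries came from a treated library, although the site counted as ctrl.-only. Asap1, an Arf GTPase-activating protein, had 9.42 and 7.06 in ctrl., 4.20 in cal. res. replicate 1 and 5.54 in CORT replicate 1. The junction protein gene Afdn had 10.3 and 5.77 in ctrl., 5.92 in cal. res. replicate 1 and 12.7 in CORT replicate 1, and Sh3rf1, a scaffold with ubiquitin ligase activity, had 11.99 and 5.44 in ctrl. and 4.43 in CORT replicate 1. None of the 12 had a peak in CORT replicate 2, and 11 of 12 had one in CORT replicate 1.

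The remaining 3 of the 12 were distal. An intergenic site nearest to Cyp7b1, an oxysterol hydroxylase of the alternative bile acid pathway whose expression in liver is higher in males than in females, lay 11.2 kb upstream (chr3:18254070-18255010). Its fold was 7.02 and 8.96 in ctrl., 6.08 in cal. res. replicate 1 and 21.8 in CORT replicate 1, the highest of any member in any library, with no peak in cal. res. replicate 2 or CORT replicate 2. It held STAT and C/EBP motifs and overlapped a FOXO1 region of 5.62-fold. A site 29.3 kb from Nrep had 7.31 and 10.3 in ctrl., 9.87 in cal. res. replicate 1 and 11.1 in CORT replicate 1, and held STAT and FOX motifs. The intronic site nearest to Hcn3, a hyperpolarisation-activated channel, was the only one of the 12 without any peak in a treated library, with 10.3 and 6.31 in ctrl.

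**Figure D2:**
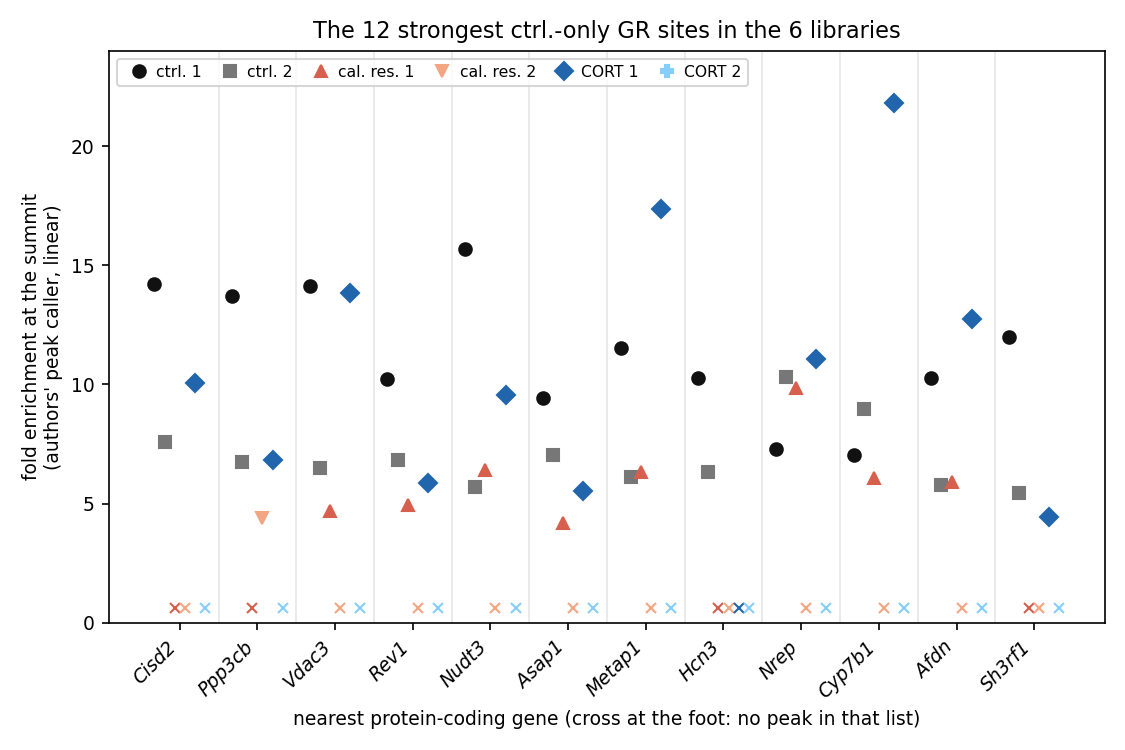
Points give the fold enrichment at the summit (linear, y axis) in each of the 6 GR libraries for the 12 strongest ctrl.-only sites, named by nearest gene, and crosses at the foot mark a list without a peak. CORT replicate 2 has a cross at all 12, while CORT replicate 1 has a value at 11 and exceeds both ctrl. libraries at Metap1, Nrep, Cyp7b1 and Afdn.

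The 83 sites with no peak in the 4 treated lists were led by Hcn3, and the next 7 comprised 2 promoters, 2 intronic and 3 intergenic sites. A site 33.8 kb upstream of the nearest start of Neb, the muscle protein nebulin, had 7.96 and 5.13 in ctrl. It lay in an annotated intron that need not be one of Neb, and held STAT and C/EBP motifs. Ces3a, a liver carboxylesterase, had 6.15 and 5.58 at an intronic site of 2430 bp with a STAT match. The promoter of Ehmt1, a histone methyltransferase, had 7.02 and 5.003, and that of Plekha3, a phosphoinositide-binding protein of the Golgi, 5.14 and 4.81. Intergenic sites nearest to Shcbp1 (7.39 and 4.49), Cd83 (6.42 and 4.17) and Chmp2b (10.03 and 3.34) lay 59.7, 112 and 110 kb from the gene's transcript start. Ctrl. replicate 1 was the higher at all 8, as at 593 of the 720 members, and apart from Hcn3 none passed 5.58 in replicate 2.

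By position, 435 members (60.4%, exact 95% interval 56.7 to 64.0) were centred within 1 kb of an annotated transcript start, 151 (21.0%) lay in introns, 107 (14.9%) between genes and 27 (3.75%) in exons. Among all GR sites 25% were at promoters, among the other ctrl.-held sites 43.3%, among cal. res.-only sites 15.1% and among CORT-only sites 32.3%. The difference from the other ctrl.-held sites was 17.1 percentage points (Newcombe 95% interval 13.4 to 20.8; this and all further intervals cover counting error over sites, which are not replicates). Strength moved with this result: in the weakest quintile, which held most members, 60.3% of members and 59.9% of the other sites were at promoters, a difference of 0.50 points (−4.58 to 5.45). In the next 3 quintiles the members stayed at 59.4%, 61.0% and 61.9% while the other sites had 49.0%, 45.7% and 39.5%, and all 3 intervals of the difference lay above 0. With the other sites weighted to the members' quintiles their share was 55.2%. The 1845 sites shared with CORT alone had a promoter share of 66.2% (64.0 to 68.3), above that of the members.

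**Figure D3:**
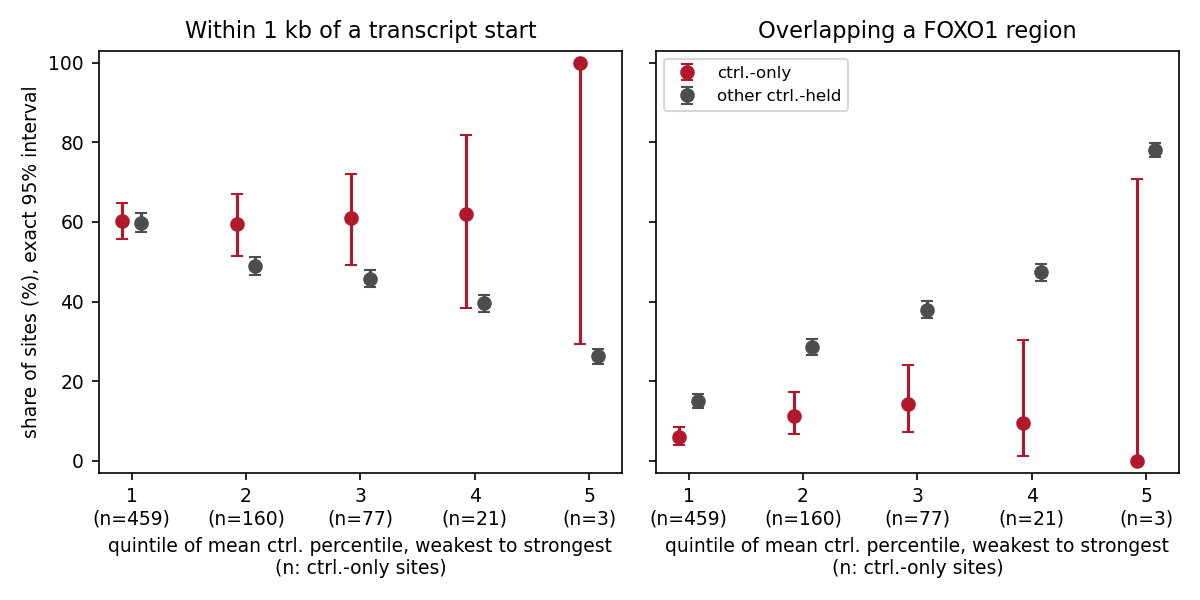
Points give the share of sites (%) at a promoter (left) and overlapping a FOXO1 region (right) within quintiles of the mean ctrl. percentile, for ctrl.-only and other ctrl.-held sites, with exact 95% intervals. In the weakest quintile the promoter shares nearly coincide at 60.3% and 59.9%, whereas the FOXO1 share of the ctrl.-only sites lies below that of the other sites in every quintile.

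The promoter share of the members differed most by which CORT library had the peak. Of the 286 members with a peak in CORT replicate 1, 234 (81.8%, 76.9 to 86.1) were at promoters, compared with 131 of 308 (42.5%, 36.9 to 48.3) of those with a peak in CORT replicate 2. Mean GC content of the 200 bp around the summit was 69.2% and 55.0%. By cal. res. library the shares were close, 60.7% for members with a peak in replicate 1 and 56.2% for those with one in replicate 2. With CORT replicate 1 left out of the rule the promoter share of the sites kept was 74.5%, and with CORT replicate 2 left out 45.4%. It was 52.4% without ctrl. replicate 1 and 20.3% without ctrl. replicate 2. The lists themselves differed in this respect: at equal length, promoters made up 30.6% and 43.2% of ctrl., 24.996% and 26.1% of cal. res. and 37.8% and 34.5% of CORT regions in replicates 1 and 2. Their part in the promoter share of the members was not tested.

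**Figure D4:**
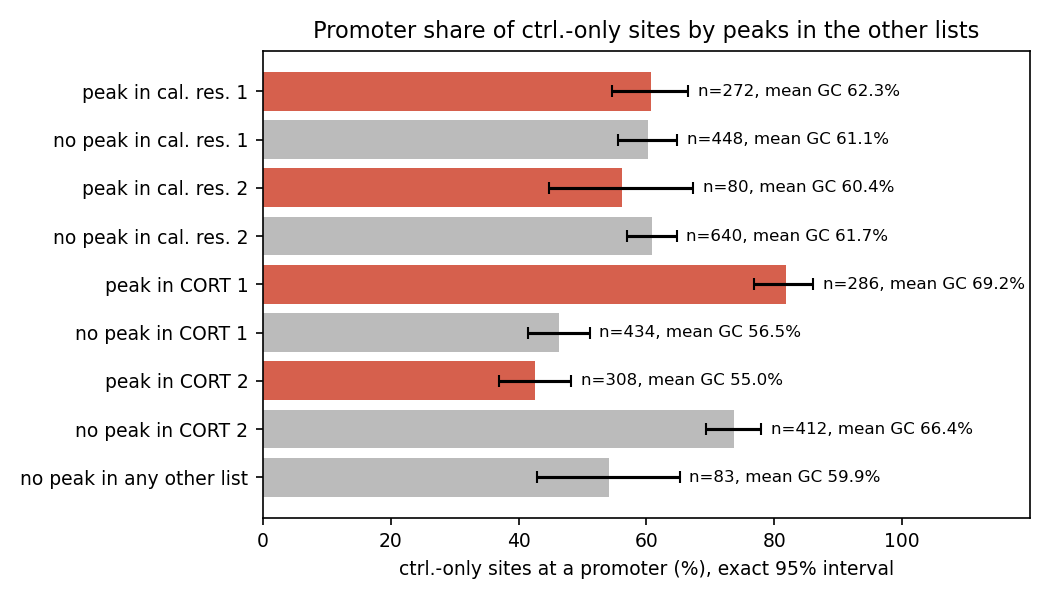
Bars give the percentage of ctrl.-only sites at a promoter, split by whether each treated list had a peak there, with exact 95% intervals and the number and mean GC content of the sites beside each bar. Members with a peak in CORT replicate 1 stand at 81.8% and those with a peak in CORT replicate 2 at 42.5%, while the cal. res. splits differ little.

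Members were GC-rich, with a mean of 61.5% against 55.3% at the other ctrl.-held sites, 48.6% at cal. res.-only and 51.7% at CORT-only sites. Sites shared with CORT alone (59.7%) and those shared with cal. res. alone (59.4%) were close to the members. Against the other ctrl.-held sites together, the mean was higher in members in all 5 quintiles, for example 60.5% against 57.2% in the weakest. This lay in the promoters: at promoter sites the members averaged 69.5% and the other ctrl.-held sites 63.4%, while at distal sites, those further than 1 kb from a start, the values were 49.4% and 49.1%. Members also stood apart from other binding. The median gap to the nearest site held by another group was 15.8 kb against 5.01 kb, and 286 (39.7%) had such a site within 10 kb, compared with 64.1% of the other ctrl.-held sites.

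FOXO1, a forkhead factor active when insulin is low, was measured in cal. res. liver only and was not part of the rule. Of the 720 members 58 (8.06%, 6.17 to 10.3) overlapped a FOXO1 region, against 4395 of 10276 (42.8%) of the other ctrl.-held sites, a difference of −34.7 points (−36.7 to −32.3), and 13.9% of all GR sites. The share was lower in members in each of the 5 quintiles of strength, 5.88% against 15.0% in the weakest (difference −9.17, −11.7 to −6.16) and 11.2% against 28.5% in the next. Weighted to the members' quintiles, the other sites had 21.7%. The gap was wider at distal sites, where 26 of 285 members (9.12%) and 54.3% of the other sites overlapped FOXO1, than at promoters, with 32 of 435 (7.36%) and 27.6%. Even in the weakest quintile, distal members had 6.04% and the other distal sites 21.3%. The share in members lay below that of cal. res.-only sites (18.1%; difference −10.1, −13.0 to −7.07), and the interval of its difference from CORT-only sites (6.44%) included 0 (1.62, −0.24 to 3.90). The rule left out sites that cal. res. held, and FOXO1 came from cal. res. livers, so the 1845 sites shared with CORT alone, which cal. res. did not hold either, are the nearest comparison, and 11.9% (10.4 to 13.4) of them overlapped FOXO1. The members' share was 3.52% with ctrl. replicate 2 left out of the rule and 16.5% with lists of equal length. Overlap was counted over the whole merged site, and the sets differed in width. The median was 615 bp for members, 1062 bp for the other ctrl.-held sites and 863 bp for those shared with CORT alone. Sites shared with CORT alone were also stronger, with a median of the mean ctrl. percentile of 45.5 against 36.6 for members. The part of width in the FOXO1 shares was not tested, nor that of strength in the comparison with sites shared with CORT alone.

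Among the 83 members with no other peak 2 overlapped FOXO1 (2.41%, 0.293 to 8.43). Members with strong FOXO1 regions could have weak GR peaks. At Nemp1, a nuclear envelope protein gene, FOXO1 fold enrichment was 18.5 beside GR values of 5.03 and 3.06 in ctrl. and 4.72 in CORT replicate 2. At the Mtmr14 promoter, a phosphoinositide phosphatase gene, FOXO1 stood at 13.04 and GR at 4.17 and 3.46 in ctrl., 4.46 in cal. res. replicate 1 and 4.98 in CORT replicate 1. The Nemp1 site held a FOX motif (TGTTTAC or TATTTAC) and the Mtmr14 promoter did not.

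Consensus motifs were counted on both strands in the 200 bp around the ctrl. summit. For sites that ctrl. did not hold, the summit of the highest-percentile list was used. The GRE was found at 3 of 720 members (0.417%, 0.0860 to 1.21), against 3.39% of the other ctrl.-held sites and 1.82% of all GR sites, a difference of −2.97 points (−3.43 to −2.10). GRE content rose with strength among the other sites, from 0.863% in the weakest quintile to 10.02% in the strongest, and within each quintile the interval of the difference included 0. The single GR hexamer AGAACA, a string that can overlap the palindrome, was at 71 members (9.86%) and 18.4% of the other sites, lower in members in all 5 quintiles, with an interval below 0 in the weakest (−4.33, −7.25 to −0.920) but not in the other 4. C/EBP (TTGCNNAA) was at 7.08% of members and 15.6% of the other sites, and at 11.2% of the latter when weighted to the members' quintiles. The C/EBP interval lay below 0 only in the second weakest quintile (−9.46, −12.2 to −4.85). In the weakest it included 0 (−1.20, −3.80 to 1.93). With CORT replicate 1 left out of the rule, no site with a GRE was kept. The SP1 box GGGCGG was at 321 members (44.6%, 40.9 to 48.3) against 27.4%, higher in all 5 quintiles with each interval above 0, and 14.8% of all GR sites held it. The box holds only G and C and the members were the more GC-rich, and the part of GC content in this difference was not tested. The ETS core CCGGAA was at 16.2% against 9.70%, but within each quintile the interval of that difference included 0. The 1845 sites shared with CORT alone were close to the members in these motifs. They held the GRE at 0.379%, the hexamer at 11.8%, C/EBP at 8.40%, SP1 at 39.7% and ETS at 16.4%.

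Promoter and distal members differed in this respect. At promoters SP1 matched 67.4% of members and 53.7% of the other sites (difference 13.7, 8.93 to 18.2), ETS 24.6% and 18.2%, while STAT (TTCNNNGAA; 2.53% and 5.24%), FOX (1.15% and 4.05%) and C/EBP (2.07% and 7.56%) were lower in members. Promoter members were weaker, with a median of the mean ctrl. percentile of 36.6 against 59.9. The other promoter sites, weighted to the members' quintiles, had SP1 at 52.8%, ETS at 21.2%, STAT at 4.27%, FOX at 2.95% and C/EBP at 5.98%. At distal sites the members carried STAT at 33 of 285 (11.6%, 8.11 to 15.9) and FOX at 36 (12.6%, 9.01 to 17.1), and the differences from the other distal sites were 0.25 points (−3.07 to 4.56) and 0.48 (−2.99 to 4.92). Distal GRE (0.702% and 5.08%), hexamer (16.5% and 25.02%) and C/EBP (14.7% and 21.7%) shares were lower in members, with intervals below 0. The distal members were the weaker, with a median of the mean ctrl. percentile of 37.5 against 71.2. Weighted to the members' quintiles, the other distal sites had a GRE share of 1.71%, a hexamer share of 22.3% and a C/EBP share of 17.2%, and their STAT and FOX shares were 10.6% and 11.7%. Of the remaining motifs over all places, HNF4 (CAAAGTCCA; 1.81% and 1.90%), E-box (CACGTG; 5.14% and 6.27%) and the DR1 repeat (0.417% and 1.13%) had intervals that included 0. HNF1 (GTTAATNA; 1.25% and 2.45%) and AP-1 (TGANTCA; 3.19% and 5.81%) were lower in members, and the NF1 palindrome occurred at 1 member. Within quintiles of strength the HNF1 interval always included 0. The AP-1 interval lay below 0 in the weakest quintile only (−2.29, −3.92 to −0.118). None of the 13 motifs was found at 179 members.

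**Figure D5:**
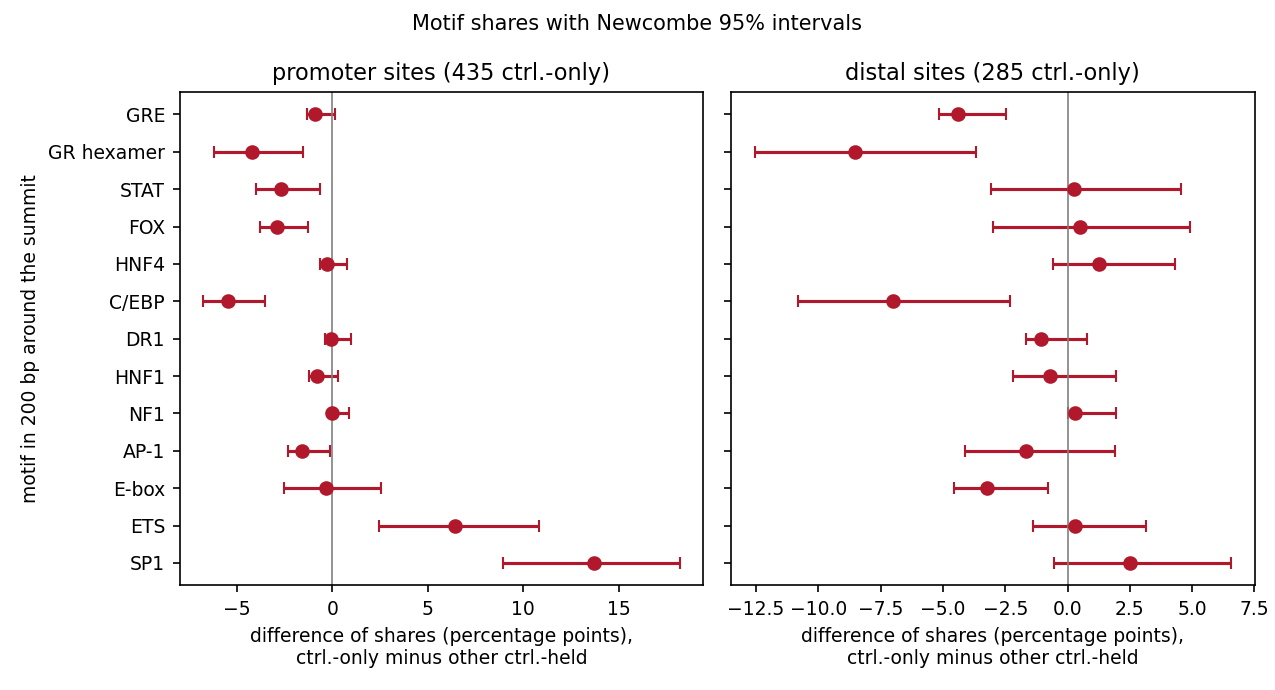
Points give the difference in motif share (percentage points, x axis) between ctrl.-only and other ctrl.-held sites for 13 motifs, at promoter (left) and distal (right) sites, with Newcombe 95% intervals. SP1 and ETS lie above 0 at promoters, GRE, the GR hexamer, C/EBP and E-box lie below 0 at distal sites, and distal STAT and FOX straddle 0.

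The members had 695 distinct nearest genes. Only Hsd3b2 was nearest to 4 of them and Fbxo48 to 3, both picked out after their values were seen. The 4 sites near Hsd3b2, together with 1 nearest to Hsd3b5, lay within a cluster of near-identical hydroxysteroid dehydrogenase genes (chr3:98645322-98702220), where short reads can be hard to assign, and reads that mapped to several places had been removed by the authors. In ctrl. replicates 1 and 2 their fold enrichment was 7.28 and 5.77, 3.91 and 9.92, 6.28 and 3.53, 5.14 and 3.41, and, at Hsd3b5, 4.28 and 4.81. At the second of these sites cal. res. replicate 1 (12.2) and CORT replicate 1 (12.7) were higher than both ctrl. libraries. All 3 sites near Fbxo48 lacked a peak in every treated library, with 5.59 and 4.00, 4.23 and 3.47, and 4.19 and 2.91 in ctrl.

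Gene lists were read as the share of listed genes with a ctrl.-only site centred within 50 kb of a transcript start. Over all protein-coding genes this was 1524 of 21924 (6.95%), and 49.2% had any ctrl.-held site there. None of 18 classic glucocorticoid targets and none of 14 gluconeogenesis and FOXO1 target genes had a ctrl.-only site, although 17 and 14 of them had a ctrl.-held site, 61 and 57 sites in all. The hepatocyte markers likewise had 0 of 77 ctrl.-held sites in the set. Over all protein-coding genes 648 of 9323 nearby ctrl.-held sites (6.95%) were ctrl.-only, and the lists below are read against this share, since most of their genes had several ctrl.-held sites.

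Of 19 clock genes 18 had a ctrl.-held site and 5 a ctrl.-only site, and 6 of 69 ctrl.-held sites there were ctrl.-only (8.70%), near the share over all genes. At the promoter of Hlf, a PAR bZIP output factor of the clock, fold enrichment was 6.42 and 5.07 in ctrl., 8.11 in cal. res. replicate 1 and 6.37 in CORT replicate 1. Dbp, a related factor, had 2 sites, 5.64 and 12.8 kb from its start and nearer to Sphk2 and Rpl18, with 4.71 and 6.42 and with 4.45 and 5.02 in ctrl. Both had their only other peak in CORT replicate 2, at 3.53 and 8.995. Bhlhe41, a repressor within the clock, had 7.54 and 3.22 in ctrl. and 4.98 in CORT replicate 1 at an intergenic site, and a weaker site lay near the nuclear receptor gene Rora (3.77 and 4.19). At Hlf, Rora and the second Dbp site the highest value among the 6 libraries came from a treated library.

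Of 15 bile acid and cholesterol genes 14 had a ctrl.-held site and 4 a ctrl.-only site, or 4 of 64 ctrl.-held sites (6.25%), again near the share over all genes. An intronic site 1.70 kb from a start of Nr5a2, a nuclear receptor that drives bile acid synthesis genes and is also on the list of hepatocyte factors, had 8.13 and 5.45 in ctrl., 6.65 in cal. res. replicate 1 and 20.5 in CORT replicate 1. The site 10.7 kb upstream of Cyp8b1, the sterol hydroxylase that sets the cholic acid share, had 8.59 and 3.53 in ctrl., 5.16 in cal. res. replicate 1 and 6.28 in CORT replicate 2. The paired sterol exporters Abcg5 and Abcg8 shared 2 sites, each in an annotated intron that need not belong to either gene. They lay 22.6 and 25.7 kb upstream of the Abcg8 start and 28.5 and 31.6 kb downstream of that of Abcg5. The second was nearest to Dync2li1. Their fold enrichment was 8.80 and 4.42 and, at the second, 6.85 and 3.53 in ctrl. Both also had a peak in cal. res. replicate 1, at 7.80 and 3.78. At all 4 of these sites a treated library exceeded the lower ctrl. value, as at 541 of the 720 members.

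All 16 lipogenesis genes had a ctrl.-held site and 4 a ctrl.-only site, and 5 of 66 ctrl.-held sites (7.58%) were ctrl.-only, against 6.95% over all genes. Gpam, the first enzyme of triglyceride synthesis, had 5.38 and 5.16 in ctrl. and 2.86 in CORT replicate 2, and here both ctrl. values were the higher. Elovl6, a fatty acid elongase, had 4.44 and 3.21 in ctrl. and no other peak. An exonic site nearest to Rai1 lay 22.4 kb from Srebf1, the master regulator of lipogenesis (4.28 and 3.21 in ctrl.). Sites near Dgat2, the last enzyme of triglyceride synthesis, had 7.69 and 3.96, and 2.92 and 3.37, in ctrl. The first of these lay 31.1 kb from Dgat2 and was nearer to Uvrag. The Srebf1 and Dgat2 sites each had 1 other peak, in CORT replicate 2. All 5 lipogenic sites lacked a peak in both cal. res. libraries, as did 368 of all 720 members.

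For fatty acid oxidation and ketogenesis 4 of 53 ctrl.-held sites (7.55%; 4 of 16 genes) were ctrl.-only, and for the hepatocyte transcription factors 4 of 91 (4.40%; 4 of 18 genes). Both lists include Ppara, the receptor that switches on fatty acid oxidation (3.85 and 3.53 in ctrl., 5.71 in CORT replicate 2). The promoter of Arih2, 12.6 kb from the carnitine carrier gene Slc25a20, had 6.07 and 3.62 and overlapped a FOXO1 region of 5.91-fold. Sites near Cebpa (4.71 and 3.21) and Xbp1 (4.45 and 3.34) were weak. Among growth hormone and STAT5 targets, 2 of 17 genes, Cyp7b1 and Hsd3b5 as described above, had 3 ctrl.-only of 67 ctrl.-held sites (4.48%). Acute phase genes had 1 of 49 (2.04%), at a promoter nearest to Trim3 and 33.5 kb from Hpx (4.27 and 4.28). The cholangiocyte markers had 1 of 7, at a promoter nearest to Pkd2 and 23.4 kb from Spp1 (5.57 and 3.85). No member lay near any of the 12 Kupffer cell, 12 endothelial, 12 stellate or 11 lymphocyte marker genes. These genes had only 3, 14, 2 and 11 ctrl.-held sites, too few to read the absence against 6.95% over all genes.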

How the data were processed

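The 6 GR peak lists and the FOXO1 list were deposited as MACS2 narrowPeak tables. Per the labels and methods, the authors aligned paired reads to mm10 with BWA, removed duplicates and multimappers, called peaks per library at q 0.1, and filtered the GR lists against a blacklist; FOXO1 was called at a stricter q on 2 merged libraries. The use of an input control was not given in the sources used here. Fold enrichment is the authors' linear ratio, and the deposited −log10 p-value and −log10 q-value columns gave the threshold values; no read counts or depths were used, so precision rests on the numbers of sites and on 2 libraries per group.

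Peaks overlapping by 1 bp were merged. Strength was the percentile of fold enrichment within a list. Positions came from GENCODE M21 on GRCm38 (mm10), motifs and GC content from 200 bp around the ctrl. summit of the higher-percentile list, read from the RefSeq copy of that build. At sites that ctrl. did not hold, the summit was that of the highest-percentile list with a peak. Shares carry exact binomial 95% intervals and their differences Newcombe intervals (Python 3.11.15, SciPy 1.17.1), which were tested on simulated data. No p-values were computed, since sites are not replicates. The named sites were the 12 strongest, the 8 strongest without another peak, the 3 with the strongest FOXO1 regions, up to 4 per gene list, and 3 on each side of the threshold. A few of these sites are not reported here. Members, gene lists and named sites were chosen with earlier results of these data known. Alternatives changed list length, q, fold, overlap, the holding rule, windows and libraries.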

Additional observations from a re-analysis of the deposited data

How the results depend on the processing

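The number of ctrl.-only sites stayed within 1.5 times of 720 with equal list lengths (1076), q of at most 0.01 (595) and 50% overlap (754), and moved to 83 with no other peak allowed, 6350 with either library of a group sufficing and 258 at a fold of at least 5. The ctrl.-held sites behind these counts also changed, from 10996 to 7718 with equal lists, 9585 at q 0.01 and 4452 at fold 5. With equal lists the set itself was largely another, with 129 of the 720 sites among the 1076. The FOXO1 share, 8.06%, moved to 16.5% with equal lists, 10.4% at q 0.01, 2.41% with no other peak, 1.45% with either library, 15.5% at fold 5 and 3.75% with the stronger 50% of FOXO1 regions. The promoter share, 60.4%, moved to 54.2% with no other peak, 15.4% with either library, 68.6% at fold 5 and 66.9% with a 3 kb window. The GRE share, 0.417%, became 0% with no other peak (0 of 83 sites, exact upper bound 4.35%), 1.16% at fold 5 and 0.139% in 100 bp windows. The STAT share, 6.11%, moved to 4.46% with equal lists, 8.91% at fold 5 and 4.17% in 100 bp windows, and the FOX share, 5.69%, to 4.09% with equal lists, 9.46% with either library and 3.06% in 100 bp. Leaving out 1 GR library in turn gave 419 to 13372 sites, FOXO1 shares of 3.52% to 8.59%, promoter shares of 20.3% to 74.5%, GRE shares of 0% to 0.674%, STAT shares of 5.17% to 8.39% and FOX shares of 4.06% to 9.22%. The cause of these shifts was not tested. No paired analysis was possible because the results come from no test. Weak peaks of 2 libraries per group and unknown read depth limit what the set can show.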

Other observations

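The ctrl.-only sites were spread over all autosomes. They made up between 4.20% of the ctrl.-held sites on chromosome 19 and 8.13% on chromosome 3 (the lowest and highest autosomal shares), and 3 of 50 on chromosome X.

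Within their own lists, promoter regions did not rank alike in all libraries. In ctrl. replicate 1 the median percentile of fold enrichment was 52.8 for promoter and 48.7 for distal regions, and in ctrl. replicate 2 it was 44.2 and 55.4. For cal. res. the promoter medians were 38.2 and 39.0 and the distal medians 56.1 and 55.1. For CORT they were 55.8 and 59.1 at promoters, against 47.7 and 46.4 at distal regions. In cal. res. and in ctrl. replicate 2 promoters thus stood below distal regions, and in CORT and ctrl. replicate 1 above them, which is also how the library names divide. What the name styles stand for is not given, and their part in the ctrl.-only set was not tested.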
